A study of Mus musculus with 4 samples.

Results

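The genes described here are 10 genes of steroid synthesis and of Leydig cell identity, namely Cyp11a1, Cyp17a1, Star, Hsd3b1, Fdx1, Fdxr, Insl3, Lhcgr, Vcam1 and Scarb1, read in RNA from THY1-selected mouse testis cells. They were chosen by name, with earlier results of these data known. Every probe set that the array annotation assigns to 1 of them alone was taken. That gave 15 probe sets of 45037 on the array, for 7 of the 10 genes. No probe set was assigned to Fdxr, Insl3 or Lhcgr alone. Insl3 shares 2 probe sets with Jak3, which therefore name neither gene, and these 3 genes are not analysed here. Of the 15 probe sets, 14 passed the filter on dim signals, and a probe set of Cyp11a1 did not.

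The cells were gonocytes, the male germ cells of the newborn testis, enriched from mice at 2 days post partum by magnetic selection on THY1, a protein of their surface. They were kept for 8 h without serum, growth factors or feeder cells, in medium with ethanol, the vehicle, or with 100 nM retinoic acid (RA), which is made from vitamin A and acts through nuclear receptors. Each treatment had 2 samples, numbered 1 and 2 in the labels, with 1 Affymetrix array each. The labels give no strain, do not say how many animals a sample pools, and do not say what the numbers stand for. Nothing says that the samples are separate animals or cultures, and each p-value below measures the spread among the 4 arrays alone, which could be technical. The arrays had equal trimmed means of 125 and median intensities between 26.6 and 29.5. The ratio of 3' to 5' signal of the control transcript Actb was 1.72 in vehicle 1, 1.73 in vehicle 2, 2.08 in RA 1 and 2.32 in RA 2. That ratio therefore differed between the treatments, less so between RA 1 and RA 2, and hardly between vehicle 1 and vehicle 2. Its part in the RA values, those of RA 2 against RA 1 included, was not tested.

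Leydig cells lie between the testis tubules and are the main source of androgens in the male. Steroid synthesis begins when cholesterol, taken up from lipoproteins by receptors such as SCARB1, is carried into the mitochondrion with the help of STAR. There CYP11A1 cuts its side chain to give pregnenolone, using electrons that pass from FDXR to FDX1, and HSD3B1 and CYP17A1 carry the product on towards androgens. LHCGR is the receptor for luteinizing hormone, INSL3 is a peptide hormone of Leydig cells, and VCAM1 is an adhesion protein of the cell surface. Of the genes measured, Scarb1, Fdx1 and Vcam1 are also used by many other cell types, while Cyp11a1, Cyp17a1, Star and Hsd3b1 are mostly used by steroid-producing cells. In a bulk sample, fewer cells of a type and less RNA per cell cannot be told apart.

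Promoter windows are shown for Cyp11a1 and Hsd3b1, since these enzyme genes differed in how RA 2 stood to RA 1. The windows run from 250 bases before to 50 bases after a transcription start in RefSeq (GRCm38.p6), and windows were at hand for 6 of the 10 genes: Cyp11a1 (2 starts), Hsd3b1, Fdx1, Fdxr, Insl3 and Lhcgr. Capitals mark matches, on either strand, to any of 4 motifs. AGGTCA is the half-site bound by many nuclear receptors, retinoic acid receptors among them. Its longer form AAGGTCA, which contains it, is bound by the steroidogenic factor SF-1. The letters AGATAA are a GATA factor motif, and TATAAA is the TATA box.
Cyp11a1, chr9:58014702-58015001, + strand: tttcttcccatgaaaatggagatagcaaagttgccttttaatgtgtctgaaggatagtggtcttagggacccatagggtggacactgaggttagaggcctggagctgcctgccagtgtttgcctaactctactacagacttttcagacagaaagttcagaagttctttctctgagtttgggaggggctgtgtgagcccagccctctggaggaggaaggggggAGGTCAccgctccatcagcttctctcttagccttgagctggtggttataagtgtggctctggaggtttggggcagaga
Hsd3b1, chr3:98859745-98860044, - strand: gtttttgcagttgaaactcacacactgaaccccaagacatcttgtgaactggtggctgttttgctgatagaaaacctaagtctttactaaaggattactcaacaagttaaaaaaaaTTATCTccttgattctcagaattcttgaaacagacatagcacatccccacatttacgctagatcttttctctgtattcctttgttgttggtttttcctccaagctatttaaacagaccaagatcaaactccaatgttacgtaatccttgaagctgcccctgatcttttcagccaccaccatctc
The Cyp11a1 window held AGGTCA once, starting 28 bases before the start site, and its other window held none of the 4 motifs. The Hsd3b1 window held AGATAA once, on the opposite strand at position -134. Of the genes whose windows are not shown, Lhcgr had AGGTCA once, at position -122, and Fdx1, Fdxr and Insl3 had none of the 4 motifs. Of all 32851 windows of 300 bases, 16.3% held the half-site, 4.72% its longer form, 11.2% the GATA motif and 13.6% TATAAA. A match is only a description of the letters.

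Cyp11a1, the side-chain cleavage enzyme, gave a bright signal on every array. Its brightest probe set (1448804_at) had an intensity of 700 in vehicle 1, 1308 in vehicle 2, 660 in RA 1 and 1156 in RA 2. Both arrays numbered 2 lay above both numbered 1, while the treatments overlapped. The signal was 1.86-fold higher in vehicle 2 than in vehicle 1 and 1.75-fold higher in RA 2 than in RA 1, and over the 4 arrays it was 1.80-fold higher in number 2 (log2 difference 0.85 ± 0.15, SE, n = 2 per number, limma, adjusted p = 0.0471). This p lay near the threshold of 0.05 and was between 0.000324 and 0.221 under the other settings tried, the highest being that without RA 1. A dimmer probe set (1439947_at) stood at 16.5 and 26.4 in vehicle 1 and 2 and 13.2 and 18.2 in RA 1 and 2, again higher in both number 2 arrays, with a log2 difference of 0.45 ± 0.28 that did not pass. The probe set below the filter read between 2.67 and 3.75 and was too dim to compare.

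The other enzymes of the pathway were higher in vehicle 2 than in vehicle 1, a comparison of single arrays with no test, and had nearly equal values in RA 1 and RA 2. Hsd3b1, which converts pregnenolone to progesterone, had intensities of 310 and 602 in vehicle 1 and 2 and 348 and 342 in RA 1 and 2. Vehicle 2 thus stood 1.92-fold above vehicle 1, and RA 2 was at 0.983 times RA 1. Cyp17a1, which makes androgen precursors, read 29.3 and 64.9 in vehicle 1 and 2 and 34.9 and 36.7 in RA 1 and 2, a 2.03-fold difference between the vehicle arrays and a 1.04-fold difference between the RA arrays. For both genes, vehicle 2 was the highest array and the other 3 lay close together. Over the 4 arrays neither passed for number 2 against number 1 (limma, log2 0.46 ± 0.25, adjusted p = 0.355 for Hsd3b1 and 0.54 ± 0.29, adjusted p = 0.358 for Cyp17a1). Mouse Hsd3b1 belongs to a family of closely similar genes, and whether its probe set also binds their transcripts was not tested.

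Star, which brings cholesterol to the inner mitochondrial membrane, was measured by 3 probe sets that did not run in parallel. The brightest (1449201_at) read 335 and 521 in vehicle 1 and 2 and 467 and 443 in RA 1 and 2. The second (1418728_at) read 161 and 252 in vehicle 1 and 2 and 292 and 301 in RA 1 and 2, so that RA 1 and RA 2 exceeded both vehicle arrays. The third (1418729_at) read 66.4 and 109 in vehicle 1 and 2 and 136 and 76.3 in RA 1 and 2. All 3 were higher in vehicle 2 than in vehicle 1, by 1.55-fold, 1.55-fold and 1.60-fold, whereas between the RA arrays the log2 differences were -0.07, 0.04 and -0.80. The probe sets of Star therefore shared their difference between the vehicle arrays but not that between the RA arrays.

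Scarb1, the receptor that takes up cholesterol esters from high-density lipoprotein, had 3 probe sets with like values. The brightest (1455820_x_at) read 262 and 376 in vehicle 1 and 2 and 258 and 390 in RA 1 and 2, and the other 2 spanned 195 to 384. On each of the 3, both number 2 arrays lay above both number 1 arrays, with folds between 1.35 and 1.43 in vehicle and of 1.47 or more in RA. The fit over the 4 arrays gave log2 differences of 0.55 ± 0.17, 0.50 ± 0.18 and 0.50 ± 0.18 for number 2 against number 1, none of which passed (limma, adjusted p between 0.131 and 0.18). With treatment as a further term, the brightest passed (limma, adjusted p = 0.0336), and the other 2 did not. Probe sets of 1 gene share their target and are not independent.

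Fdx1, the ferredoxin that hands electrons to mitochondrial cytochromes P450 such as CYP11A1, read 649 and 798 in vehicle 1 and 2 and 897 and 1088 in RA 1 and 2. It was the member whose brightest probe set was higher in RA 1 and RA 2 than in either vehicle array. The difference was of the same size within number 1, 1.38-fold, and within number 2, 1.36-fold, and over the 4 arrays it was 1.37-fold (log2 0.45 ± 0.22, SE, n = 2 per group, limma, adjusted p = 1, unadjusted p = 0.0707). It did not pass the test, and its 95% interval ran from -0.05 to 0.96 on the log2 scale.

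Vcam1, which binds leukocyte integrins and is also found on endothelium and stroma, was higher in number 2 within each treatment on all 3 of its probe sets, and on 2 of them both number 2 arrays lay above both number 1 arrays. The brightest (1448162_at) read 520 and 698 in vehicle 1 and 2 and 358 and 511 in RA 1 and 2, with both RA arrays below both vehicle arrays. The second (1415989_at) read 51.2 and 125 in vehicle 1 and 2 and 26.9 and 126 in RA 1 and 2, so that the number 2 arrays were nearly equal and the number 1 arrays much lower. The third (1451314_a_at) read 18.4 and 46.1 in vehicle 1 and 2 and 17.6 and 33.0 in RA 1 and 2.
For number 2 against number 1, the second probe set was 3.09-fold higher (log2 1.63 ± 0.29, limma, adjusted p = 0.0417), with adjusted p between 2.32e-09 and 0.147 under the other settings tried and of 0.0672 without RA 2. The brightest gave 0.46 ± 0.22 (limma, adjusted p = 0.301) and the third 0.94 ± 0.26 (limma, adjusted p = 0.118, or 0.00948 with treatment as a further term), so the size of the difference depended on the probe set.

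**Figure D1:**
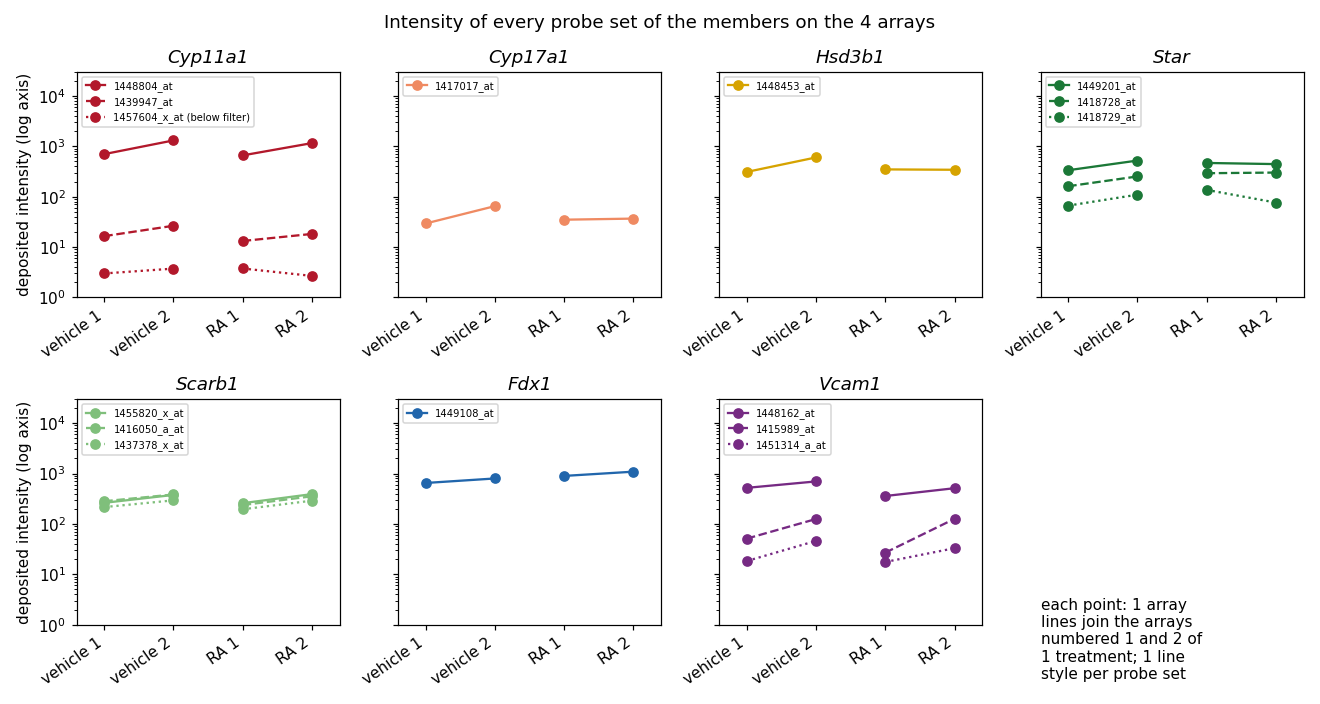
Deposited intensity (log axis) of each of the 15 probe sets on the 4 arrays, 1 panel per gene, with lines joining the arrays numbered 1 and 2 of a treatment and 1 line style per probe set. Cyp11a1 (1448804_at) was higher in number 2 with vehicle (700 and 1308) and with RA (660 and 1156), while Hsd3b1 differed between the vehicle arrays (310 and 602) and read nearly the same on the RA arrays (348 and 342).

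The comparison of number 2 with number 1 asked how far the samples of a treatment differed in these transcripts. Within vehicle, 14 of 14 probe sets of the 7 genes were higher in number 2, where 48.4% of all probe sets above the filter were. Within RA, 11 of 14 were higher, beside 47.6% of all. A 2-fold or larger excess of vehicle 2 was found on 3 of the 14 (1 of Cyp17a1 and 2 of Vcam1), where 2.03% of all probe sets had one, and on 1 of Vcam1 in RA, where 3.25% had one. Both number 2 arrays lay above both number 1 arrays on 8 of 14, of Cyp11a1, Cyp17a1, Scarb1 and Vcam1, against 23.5% of all probe sets, and on 0 of 14 both lay below, against 26.9%. In limma, 2 of the 14 were called higher, of Cyp11a1 and Vcam1, where 0.403% of all 27022 probe sets were. None of the 14 was called lower, with 0.178% called over all, and 0 of the 14 were lower at an unadjusted p under 0.05, where 8.92% of all were. At an unadjusted p under 0.05, 6 of the 14 were higher, of Cyp11a1, Scarb1 and Vcam1, where 9.42% of all were. Several of the 14 share a gene and are not independent. The members were chosen with earlier results of these data known, so these counts are a description and no test.

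Taken by gene, from the brightest probe set of each, the median log2 difference between number 2 and number 1 over the 7 genes was 0.63 within vehicle and 0.28 within RA. Over all 13011 genes above the filter these medians were -0.06 and -0.04. All 7 genes were higher within vehicle and 5 within RA, where 42.7% and 46.3% of all genes were. Both number 2 arrays lay above both number 1 arrays for 3 of the 7, against 21.4% of all genes. In limma, 2 of the 7 were higher in number 2 at an unadjusted p under 0.05, beside 8% of all genes. After adjustment 1 of the 7 was called higher, beside 0.438%. The 4 genes most tied to steroid-producing cells, Cyp11a1, Cyp17a1, Star and Hsd3b1, had a median of 0.92 within vehicle and of 0.02 within RA. Cyp11a1, at 0.90 and 0.80, was the one of the 4 that kept its difference in RA. Hsd3b1 went from 0.94 to -0.02, Cyp17a1 from 1.02 to 0.06 and Star from 0.63 to -0.07. Scarb1, at 0.51 and 0.59, Fdx1, at 0.30 and 0.28, and Vcam1, at 0.42 and 0.51, differed by similar amounts in both treatments. Whether the change with the number differed between the treatments could not be tested, since 1 array stood behind each value.

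**Figure D2:**
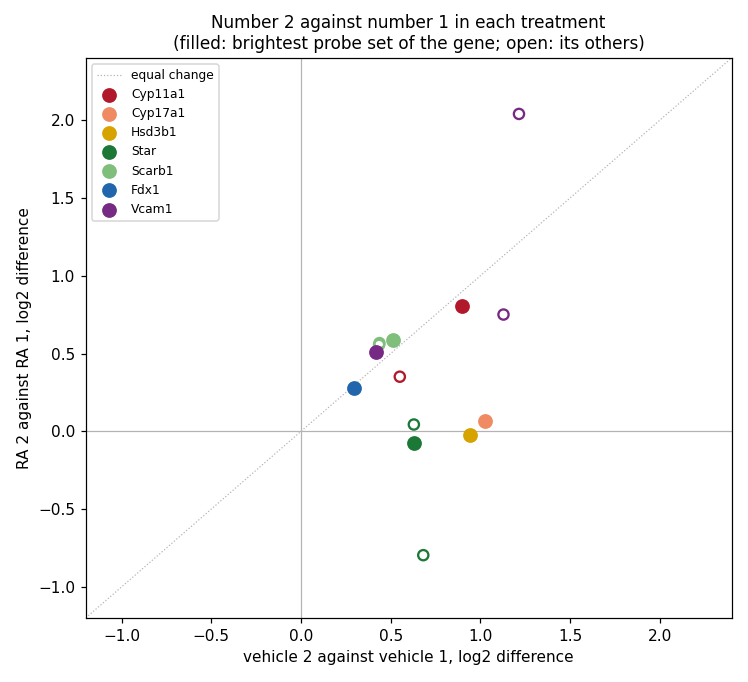
Log2 difference between number 2 and number 1 within vehicle (x axis) and within RA (y axis) for the 14 probe sets above the filter, filled for the brightest probe set of a gene and open for its others, with a dotted line of equal change. Cyp11a1 lies near the line at 0.90 and 0.80, and the filled points of Hsd3b1, Cyp17a1 and Star lie far below it, near 0 on the y axis.

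The comparison of RA with vehicle asked whether RA changed these transcripts within 8 h. No member passed. In limma, 0 of the 14 probe sets were called in either direction, with 0% of all probe sets called, and 0 of the 14 had an unadjusted p under 0.05, where 1.1% of all were higher and 1.65% lower at that level. Adjusted p in limma was 1 for each of the 14. Log2 changes ran from -0.49 ± 0.25 for Vcam1 (1448162_at) to 0.54 ± 0.25 for Star (1418728_at). For 1 probe set alone, the smallest p of an exact two-sided permutation of 2 against 2 arrays is 0.33.
The intervals were wide: for the brightest Cyp11a1 probe set the log2 change of -0.13 had a 95% interval from -0.97 to 0.71, and for Hsd3b1 the change of -0.32 had one from -1.02 to 0.38. Changes of up to about that size in either direction could have gone undetected in this fit. It leaves the number out, so differences between the numbers count as spread in these intervals. The intervals are not adjusted for testing many probe sets, and this fit called no change of any size. With RA, both arrays stood above both of vehicle on 2 of 14 probe sets, of Star and Fdx1, beside 12.7% of all, and below them on 1, of Vcam1, beside 15.2%, which is near the background.

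Within each number, 0 of the 14 probe sets reached a 2-fold difference between RA and vehicle in either direction. Over all probe sets, 0.577% were at least 2-fold higher and 0.97% at least 2-fold lower within number 1, and 0.755% and 1.69% within number 2. By gene, the median log2 difference over the 7 genes was 0.16 within number 1 and -0.23 within number 2, against 0.004 and 0.02 over all genes. Hsd3b1 was at 0.16 and -0.81, Cyp17a1 at 0.22 and -0.74 and the brightest probe set of Star at 0.47 and -0.23. These 3 genes were therefore higher with RA within number 1 and lower within number 2, a pattern also found in 22.3% of all genes. Cyp11a1 was at -0.08 and -0.18, Scarb1 at -0.02 and 0.05, Vcam1 at -0.53 and -0.44 and Fdx1 at 0.46 and 0.44. The within-number comparisons use the same 4 arrays as those between the numbers, so the high values of vehicle 2 enter both.

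**Figure D3:**
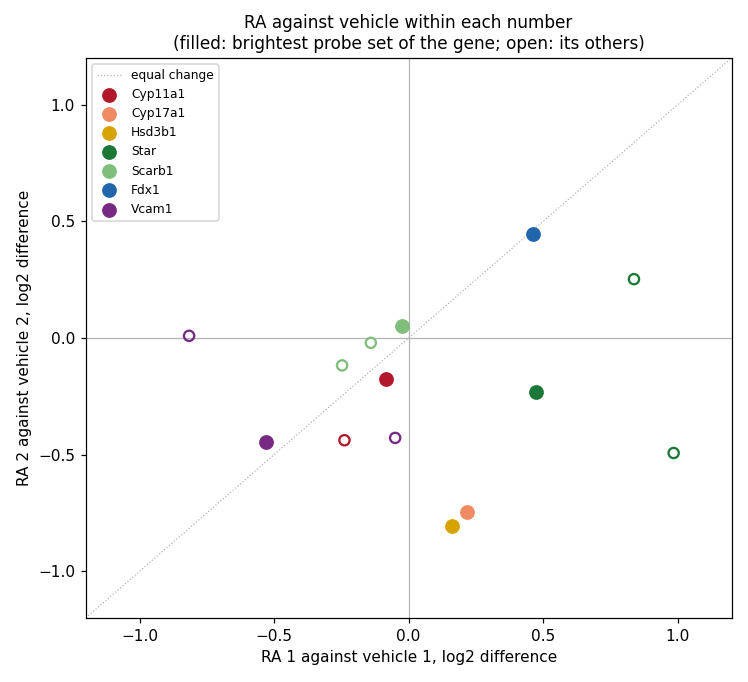
Log2 difference between RA and vehicle within number 1 (x axis) and within number 2 (y axis) for the same 14 probe sets, filled for the brightest probe set of a gene, with a dotted line of equal change. Fdx1 (0.46 and 0.44) and the filled point of Vcam1 (-0.53 and -0.44) lie near the line, and the filled points of Hsd3b1, Cyp17a1 and Star lie in the lower right.

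Other genes of steroid synthesis showed no call in either comparison. Of 33 further enzymes, electron carriers and cholesterol carriers listed, 25 had a probe set of their own and 20 passed the filter. In limma, 0 of the 20 rose and 0 fell with RA or with the number. Over all 13011 genes, 0 were called for RA, and 57 (0.438%) were called higher and 38 lower for the number. The 0 of 20 is near the background. At an unadjusted p under 0.05, 2 of the 20 were higher in number 2, near the 8% of all genes that were (10.8% were lower), and 2 were higher with RA, where 1.41% of all genes were. Their median log2 difference between number 2 and number 1 was 0.34 within vehicle and -0.08 within RA. The largest mean differences between the numbers were in Sult1e1, which sulphates estrogens, with 12.3 and 20.8 in vehicle 1 and 2 and 26.3 and 62.6 in RA 1 and 2, and in Dbi, an acyl-CoA-binding protein that also binds the mitochondrial protein TSPO, with 1980 and 2638 in vehicle 1 and 2 and 1788 and 3029 in RA 1 and 2. Neither passed for the number (limma, adjusted p = 0.346 and 0.0964). With RA, the log2 change of Sult1e1 was 1.12 ± 0.43 and that of Dbi 0.03 ± 0.31 (limma, adjusted p = 1 for both). Abca1, a cholesterol exporter picked out after its values were seen, had the next largest change with RA, 0.79 ± 0.23 (limma, adjusted p = 1).
Of 23 Leydig cell regulators listed, 19 passed the filter. In limma, 0 of the 19 were called for RA or for the number, beside the same shares over all genes. At an unadjusted p under 0.05 in limma, 4 of the 19 were higher and 2 lower in number 2, where 8% and 10.8% of all genes were. With RA, 1 was lower, where 1.3% of all genes were. The 2 lower of 19 are near the share over all genes. Rxfp2, the receptor of INSL3, was lower in both number 2 arrays, with 36.6 and 9.78 in vehicle 1 and 2 and 31.6 and 11.5 in RA 1 and 2 (log2 -1.32, limma, adjusted p = 0.0587). Nr5a1, which encodes SF-1 and was picked out after its values were seen, read 45.5 and 95.3 in vehicle 1 and 2 and 46.3 and 55.6 in RA 1 and 2, with vehicle 2 the highest array as for Hsd3b1 and Cyp17a1.

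Markers of the other cells that a THY1 selection may hold were read in the same way, as summed intensities over the brightest probe sets. The 10 macrophage markers summed to 972 in vehicle 1, 1946 in vehicle 2, 877 in RA 1 and 1695 in RA 2, 2.00-fold and 1.93-fold higher in number 2, and 8 of the 10 passed the filter. Among them Csf1r, the receptor of a macrophage growth factor, read 92.7 and 218 in vehicle 1 and 2 and 87.2 and 174 in RA 1 and 2, Adgre1 53.0 and 121 in vehicle 1 and 2 and 33.8 and 79.1 in RA 1 and 2, and Cd68 88.1 and 166 in vehicle 1 and 2 and 97.1 and 163 in RA 1 and 2. The sums rest in part on Lyz2, the brightest of the list on every array. It read 426 and 857 in vehicle 1 and 2 and 243 and 713 in RA 1 and 2. All 8 were higher in number 2 within vehicle and 7 within RA, where 42.7% and 46.3% of all genes were. Mrc1 was lower there, with 71.5 in RA 1 and 35.7 in RA 2. Lyz2 and Mrc1 were picked out after their values were seen. In limma, 0 of the 8 passed for the number after adjustment, where 0.438% of all genes were called higher. At an unadjusted p under 0.05 in limma, 6 of the 8 were higher, beside 8% of all genes. Both number 2 arrays lay above both number 1 arrays for 6 of the 8, as for Cyp11a1, against 21.4% of all genes. Their part in the number differences of the steroid genes was not tested.

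The 4 steroid-cell genes summed to 1374 in vehicle 1, 2495 in vehicle 2, 1509 in RA 1 and 1978 in RA 2, 1.82-fold and 1.31-fold higher in number 2. The excess in RA lay in Cyp11a1, the brightest of the 4, since Hsd3b1 and Star read lower in RA 2 than in RA 1 and Cyp17a1 nearly the same. The 12 stromal and peritubular markers, with Acta2, Myh11 and Pdgfra first, had sums 1.22-fold higher in vehicle 2 than in vehicle 1 and 1.30-fold higher in RA 2 than in RA 1, but they did not all run one way. Within each treatment 8 of the 12 were higher and 4 lower in number 2, where 42.7% of all genes were higher within vehicle and 46.3% within RA. In limma at an unadjusted p under 0.05, 4 were higher and 2 lower, beside 8% and 10.8% of all genes. Among the lower were 2 smooth muscle genes, picked out after their values were seen. Cnn1 read 56.8 and 18.1 in vehicle 1 and 2 and 89.2 and 34.4 in RA 1 and 2 (log2 -1.34, limma, adjusted p = 0.0907), and Des read 205 and 79.9 in vehicle 1 and 2 and 301 and 173 in RA 1 and 2 (log2 -1.04, limma, adjusted p = 0.141). Acta2, smooth muscle actin, read between 2059 and 3339, Myh11 between 150 and 216 and Pdgfra, a receptor of mesenchymal cells, between 927 and 1371. The 12 Sertoli cell markers summed to between 3435 and 3772, with ratios of 1.06 and 1.01. Of these, Amh read between 1.66 and 11.9 and lay below the filter, Sox9 between 424 and 620 and Dhh between 65.9 and 77.4. For 5 of the 10 Sertoli markers above the filter, both number 2 arrays lay above both number 1 arrays, against 21.4% of all genes. For 2 both lay below, against 30.5%. At an unadjusted p under 0.05 in limma, 3 were higher and 0 lower in number 2, beside 8% and 10.8% of all genes. Dmrt1, picked out after its values were seen, read 878 and 569 in vehicle 1 and 2 and 905 and 793 in RA 1 and 2. The 10 endothelial markers summed to between 428 and 540, with ratios of 0.881 and 1.01. Of the 10, however, 6 were higher in number 2 within vehicle and 7 within RA, where 42.7% and 46.3% of all genes were. The brightest on vehicle array 1, Flt1, picked out after its values were seen, was lower in number 2, with 152 and 86.4 in vehicle 1 and 2 and 155 and 76.5 in RA 1 and 2 (log2 -0.88, limma, adjusted p = 0.0832). Of the others, Pecam1 read between 32.2 and 55.3, Cdh5 between 22.3 and 42.5 and Kdr between 28.9 and 39.1. The 10 germ cell markers with a probe set summed to between 9392 and 9999, with ratios of 0.96 and 1.04. Ddx4 read between 1121 and 1305, Dazl between 1296 and 1606 and Mael between 1151 and 1645, so the labelled cell type had these markers on every array. The sums near 1 rest on the brightest markers. Of the 10, 9 were lower in number 2 within vehicle and 8 within RA, beside 7450 and 6988 of all 13011 genes. Sall4 was higher, with 2268 and 2530 in vehicle 1 and 2 and 2311 and 3776 in RA 1 and 2. Thy1, which encodes the protein the cells were selected on, read 329 and 168 in vehicle 1 and 2 and 265 and 141 in RA 1 and 2 (1.89-fold lower in number 2, limma, adjusted p = 0.07). Sall4 and Thy1 were picked out after their values were seen. At an unadjusted p under 0.05, 5 of the 10 germ cell markers were lower in number 2 and 1 was higher, beside 10.8% and 8% of all genes, and their median log2 difference over the 4 arrays was -0.46, against -0.06 over all genes. The part of germ cell markers in the number differences was not tested either. No marker of these 5 lists was at 0 on any array, with a lowest value of 1.66, for Amh. In limma, 0 genes of the 5 lists were called for RA or for the number. Over all 13011 genes, 0 were called for RA, and 57 higher and 38 lower for the number. Dhh and Pdgfra are also on the list of regulators.

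**Figure D4:**
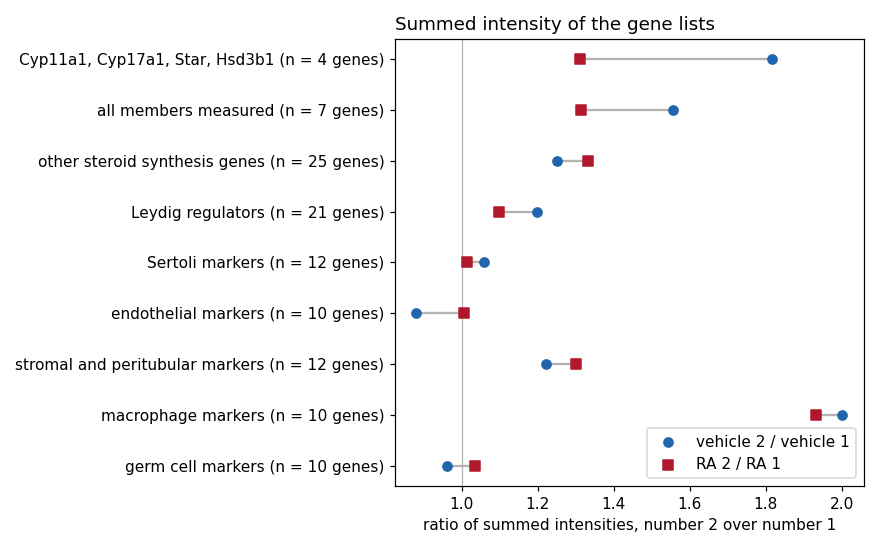
Ratio of the summed intensity of each gene list in number 2 over number 1, with circles for vehicle and squares for RA and the number of genes measured on each line. The macrophage list is highest at 2.00 and 1.93, and the 4 steroid-cell genes stand at 1.82 in vehicle and at 1.31 in RA, where Cyp11a1 carries the excess. The germ cell list lies near 1, although 9 of its 10 markers were lower in number 2 within vehicle and 8 within RA.

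The genes nearest in pattern to the 4 steroid-cell genes were found from the mean of their centred log2 values, which was -0.36 and 0.51 on vehicle arrays 1 and 2 and -0.17 and 0.02 on RA arrays 1 and 2. Over 13004 other genes, the smallest root mean square distances to it were those of A630026N12Rik (0.0317), Bloc1s3 (0.0344), Helz2 (0.0372), Mau2 (0.0417) and Cpz (0.0428), all on the log2 scale and over 4 arrays. A630026N12Rik read 129 and 229 in vehicle 1 and 2 and 140 and 165 in RA 1 and 2. The 4 genes themselves lay at distances between 0.0907, for Cyp17a1, and 0.217, for Cyp11a1, farther from their mean than these 5. With only 4 arrays, such likeness describes the profile and no more.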

How the data were processed

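RNA of 4 samples was measured, each on 1 Affymetrix Mouse Genome 430 2.0 array. Per the labels, amplification by NuGEN Ovation V2 started from 75 ng of total RNA, and GCOS 1.2 turned the scans into values. What the authors deposited is a linear intensity for each probe set. The way probes were summarised and arrays scaled is not stated there. The equal trimmed means (2% at each end) led to use without further normalization.

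Control probe sets (64) were left out. Values were taken as log2(intensity + 5), so the folds and differences given understate those of dim probe sets. The filter kept the 27022 probe sets whose mean log2 value was at or above the 40th percentile. Treatment and number were each fitted alone with limma 3.58.1 in R 4.3.3 (lmFit, eBayes with an intensity trend, two-sided, Benjamini-Hochberg over the probe sets kept, 2 residual degrees of freedom, called at an adjusted p under 0.05). Single arrays were compared by value only.

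Symbols came from the platform annotation, updated through Entrez IDs (34741 probe sets matched). Of all probe sets, 34945 had 1 gene, 932 had more than 1 and 9160 had no name. Each gene was read from its brightest probe set. The members and lists were chosen with earlier results of these data known. All probe sets of the members were named. From the other steroid and the regulator lists the rule took genes at least 2-fold different between the numbers in both treatments or past the threshold, otherwise the 2 with the largest mean change. From each list of other cells it took the first 3, and it took the 5 genes nearest in pattern. The code of the fit was tried on simulated data drawn as independent arrays. These held no difference between the numbers, unlike the arrays here. Alternatives covered normalization, pseudocount, filter, variance model, replicate block, arrays left out, and the probe sets and genes used. Plots used Python 3.11.15 and matplotlib 3.10.9. As the probe annotation is used for names alone, gene positions are given only for RefSeq promoter windows.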

Additional observations from a re-analysis of the deposited data

Results flagged for a closer look

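A single member probe set, Star 1418729_at, moved in opposite directions in the 2 treatments. Its log2 difference between number 2 and number 1 was 0.681 within vehicle and -0.797 within RA, so that its log2 difference between RA and vehicle was 0.985 within number 1 and -0.493 within number 2. These are the same 4 arrays read in 2 ways, the difference was not tested, and the other 2 probe sets of Star did not show it at that size.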

How the results depend on the processing

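No member was called for RA under any alternative. For number 2 against number 1, the call of Cyp11a1 (1448804_at) was lost with equal array medians, cyclic loess, a pseudocount of 1, either other filter, no intensity trend, and without RA replicate 1, with log2 differences from 0.76 to 0.94 over all alternatives. That of Vcam1 (1415989_at) was lost with either other filter, no intensity trend, and without RA replicate 2, with differences from 1.22 to 2.04 over all alternatives. With 1 array left out, log2 changes with RA turned sign for Cyp11a1 (1448804_at, -0.58 to 0.32), Cyp17a1 (-0.78 to 0.25), Hsd3b1 (-0.79 to 0.15), Star (1449201_at, -0.19 to 0.44, and 1418729_at, -0.15 to 0.64), Scarb1 (-0.47 to 0.10, -0.36 to 0.20 and -0.28 to 0.31) and Vcam1 (1415989_at, -1.42 to 0.62, and 1451314_a_at, -0.80 to 0.33). Those for the number turned for Star (1418728_at, -0.083 to 0.76, and 1418729_at, -0.55 to 0.43, and 0.025 with quantile normalization and 0.043 with cyclic loess). The cause was not tested.

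Same-numbered arrays deviated together (r = 0.526 across 27022 probe sets, which are not independent), but 2 pairs do not settle a pairing. With the replicate block, 543 probe sets were called for RA instead of 0, none of them a member (lowest adjusted p = 0.125 in limma), and with treatment as a term 3007 were called for the number instead of 157, with Scarb1 (1455820_x_at) and Vcam1 (1451314_a_at) added, at 1 residual degree of freedom. Leaving out 1 array gave 0 to 152 calls for RA and 172 to 1463 for the number. The number had 344 calls with equal array medians, 0 without a filter (7116 at an unadjusted p under 0.05), 91 with the stricter filter and 40 without an intensity trend. Over only the 4 steroid-cell genes the median difference between the numbers was 0.92 within vehicle and 0.0196 within RA. Members at least 2-fold apart within vehicle went from 1 to 0 with equal array medians, a pseudocount of 20 or the stricter filter, and within RA from 0 to 1 with the mean of all probe sets. The number of arrays limits every value, and signals near the pseudocount give no order.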
